A study of Arabidopsis thaliana with 3 samples.

Results

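Peaks of tagged FHY3 were called in both ChIP replicates in 359 regions inside protein-coding genes of the chromosome arms. Among the peaks called in each list, these regions were chosen by overlap and position, with no further use of the peak score. Where a peak of one list shared 1 bp or more with a peak of the other, the union of both was taken, and it was kept when its midpoint lay inside the span of a protein-coding gene and outside the stretches set aside around the centromeres. The joined lists held 882 regions on the 5 nuclear chromosomes. Of these, 292 lay in the excluded stretches, 231 lay in the arms outside protein-coding genes, and 359 met the rule. The excluded stretches run from 13 to 17 Mb on chromosome 1, from 2 to 6 Mb on chromosome 2, from 11.5 to 15.5 Mb on chromosome 3, from 1.5 to 5.5 Mb on chromosome 4 and from 10 to 14 Mb on chromosome 5.

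The chromatin came from inflorescences of Arabidopsis thaliana with flowers up to stage 8, grown in days of 16 h light and 8 h dark. All plants carried the transgene 35S:3FLAG-FHY3-3HA in the fhy3-4 mutant, so the protein was tagged at both ends and driven by a constitutive viral promoter rather than by its own. The 2 ChIP samples, precipitated with an anti-FLAG antibody, are biological replicates of that single genotype, and 1 input sample completes the series. No other genotype, tissue or condition was compared, so the values below describe where the tagged protein was found and how well the replicates matched. Positions are those of the peak lists. The sources used here do not name their genome build, and every statement that places a region in a gene assumes the frame of the TAIR10.1 gene table.

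FHY3 descends from a transposase, the enzyme of a mobile element, and now works as a DNA-binding activator in phytochrome A signalling under far-red light. In seedlings it activates FHY1 and FHL, whose products carry phytochrome A into the nucleus, and it has since been linked to the circadian clock, chlorophyll synthesis, abscisic acid responses and flower development. Transcription factors are often thought of as binding upstream of genes. Binding inside a transcribed gene can fall in an untranslated part, an exon or an intron, and these could not be separated here because the gene table holds only the span of each gene.

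The authors' peak score differed greatly between these regions. Its scale is not stated, so it is used here to rank, filter and describe peaks, and levels are not compared between the lists. It ran in replicate 1 from 23.4 through a median of 117 to 1569. In replicate 2 it ran from 23.1 through a median of 217 to 2422. Widths ran from 590 to 10504 bp around a median of 1150 bp. In both lists, 266 regions reached 50, 197 reached 100, 118 reached 200 and 26 reached 500. The regions at or above 100 in both lists had a median width of 1287 bp and the other 162 a median of 972 bp.

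The replicates ranked these regions alike. Across the 359 regions, which share the 2 libraries, Spearman's rho between the replicates' scores was 0.91 and Pearson's r of the log10 scores was 0.90. The 231 arm regions outside genes gave 0.91 for both measures. In 235 of the 359 regions (65.5%) the percentile of the score among the regions differed by at most 10 points between replicates, and the median difference was 6.41 points. The positions were close as well, but only overlapping peaks were kept, so part of this closeness comes from the rule. In 349 regions each list contributed a single peak, the midpoints of the 2 peaks were a median of 63 bp apart, and 253 pairs (72.5%) were at most 100 bp apart. The score rose with the width of the region, with a rho of 0.66 in replicate 1 and 0.72 in replicate 2.

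**Figure D1:**
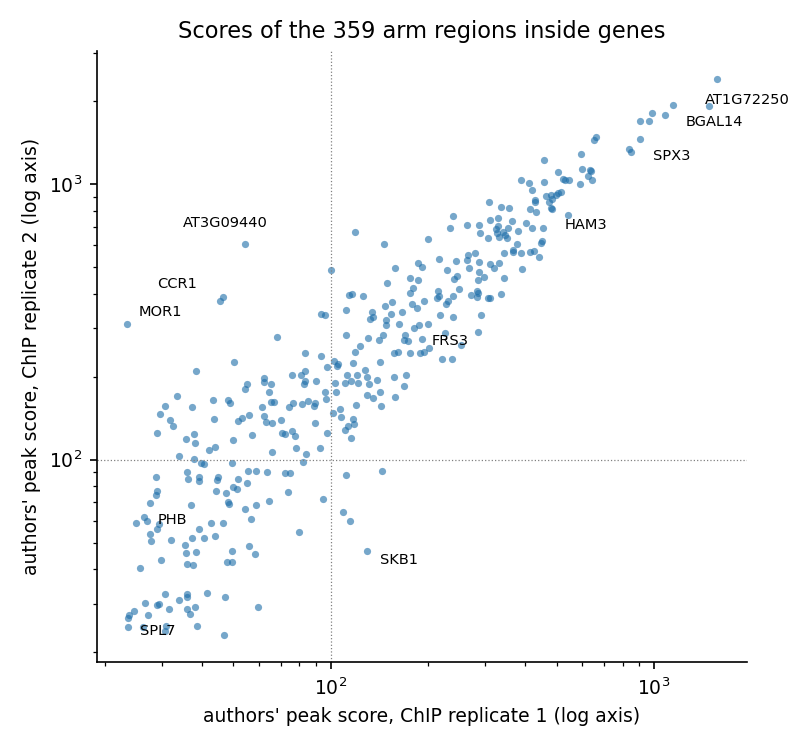
Authors' peak score of each of the 359 regions in ChIP replicate 1 (horizontal log axis) and ChIP replicate 2 (vertical log axis), 1 point per region, with dotted lines at 100. Most points follow a rising band from about SPL7 (23.5 and 24.7) to AT1G72250 (1569 and 2422), while MOR1, AT3G09440 and CCR1 lie above the band and SKB1 lies below it.

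Not all peaks inside genes were found in both lists. In replicate 1, 372 of 474 arm peaks with the midpoint in a protein-coding gene (78.5%, 95% Wilson interval 74.6 to 81.9) overlapped a peak of replicate 2, against 234 of 328 arm peaks outside genes (71.3%, 66.2 to 76.0). The odds ratio was 1.46 (95% interval 1.04 to 2.05), with p = 0.024 by a two-sided Fisher's exact test and 0.0719 after Benjamini-Hochberg adjustment over 3 tests, which misses the threshold of 0.05. Among replicate 1 peaks scoring at least 50 the shares were 99.3 and 98.3%, a difference of 0.978 points where all peaks gave 7.14 (adjusted p = 0.571 by the same exact test). In replicate 2 the shares were 362 of 514 (70.4%, 66.3 to 74.2) and 235 of 337 (69.7%, 64.6 to 74.4), with an odds ratio of 1.03 (0.756 to 1.41) and an adjusted p of 0.878 by the same exact test. The peaks found in a single list were mostly low. The 102 of replicate 1 had a median score of 27.4 and a highest of 62.4. The 152 of replicate 2 had a median of 36.8, but their highest reached 334.75.

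Regions inside genes did not score detectably higher than those outside. In both lists 100 or more was reached by 197 of 359 regions inside genes (54.9%, 49.7 to 59.9) and by 116 of 231 outside (50.2%, 43.8 to 56.6). The odds ratio was 1.21 with an interval of 0.854 to 1.70, and the adjusted p was 0.41 by the two-sided Fisher's exact test. These tests count neighbouring peaks as independent, and the intervals cover the counting of peaks only.

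Genes held about the share of regions that their length gives. Of the 590 shared arm regions, 60.8% had the midpoint in a protein-coding gene, and such genes cover 62.5% of the arm bases. This came to 5.79 regions per Mb inside genes and 6.22 per Mb between them. Chromosomes 1 to 5 held 84, 61, 80, 53 and 81 regions inside genes. The share inside was 58.3, 57.0, 60.6, 61.6 and 66.9% on these chromosomes, where genes cover 63.2, 58.5, 63.1, 63.4 and 63.5% of the arm bases. It was thus below the share of bases on chromosomes 1 to 4, by the most on chromosome 1, and above it on chromosome 5; no test of this was run.

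Between gene end and gene centre, the midpoints showed no clear departure from an even spread. Each gene was folded at its centre, because the table gives no strand and the start of transcription could not be told from its end, and the way from gene end to centre was cut into 5 equal steps. From the end to the centre the steps held 71, 72, 64, 81 and 71 midpoints, or 19.8, 20.1, 17.8, 22.6 and 19.8%, where an even spread gives 20%. The 95% Wilson interval of every step included 20%. A lean of the midpoints towards the start or the end of transcription could not be seen in genes folded this way. The 197 regions scoring at least 100 in both lists held 36, 46, 29, 46 and 40. The midpoint lay a median of 670 bp from the nearest gene end in both the higher- and the lower-scoring regions. It was within 500 bp of an end in 143 regions (39.8%) and within 1000 bp in 246 (68.5%).

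**Figure D2:**
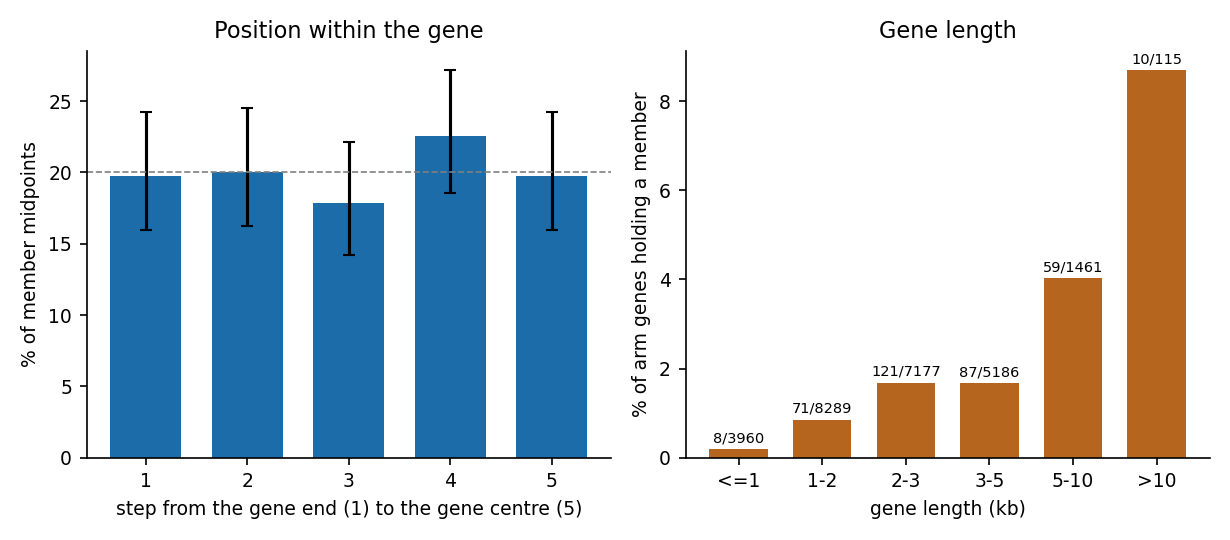
Left, percentage of the 359 midpoints in each of 5 equal steps from the gene end (1) to the centre (5), with 95% Wilson intervals and a dashed line at the 20% of an even spread; all intervals include the line. Right, percentage of arm protein-coding genes that held a region, by gene length in kb, with the number of genes holding a region over all genes of that length above each bar; the share rises from 0.202% to 8.70%.

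Many regions were longer than the part of the gene they sat in. The whole region lay inside the gene in 193 cases (53.8%), in genes with a median length of 3587 bp. Another 156 (43.5%) reached past 1 end, in genes with a median of 2332 bp, and 10 covered the gene from end to end. In all, 61 regions touched at least 2 protein-coding genes, so which gene a region belongs to is less certain for these. The rule's edge is as sharp as a few bases. The midpoints nearest to the edge inside were 2 bp into AT5G59270, 6 bp into TSD2 and 26 bp into AT4G35985, and those just outside were 8 bp from AT3G60320, 10 bp from PAA1 and 11 bp from ACR1.

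The regions lay in 356 genes, which is 1.36% of the 26188 protein-coding genes of the arms. Counting only regions that scored 100 or more in each list left 197 genes, or 0.752%. Longer genes held a region more often. Among genes up to 1 kb the share was 0.202% (8 of 3960), and among those of 2 to 3 kb 1.69% (121 of 7177). Among those of 3 to 5 kb it was 1.68% (87 of 5186), so it did not rise at this step. Among genes of 5 to 10 kb it was 4.04% (59 of 1461), and among those over 10 kb 8.70% (10 of 115). Set against the bases those genes cover, the spread was narrower, from 3.10 genes per Mb in the shortest class to 6.87 in the class of 2 to 3 kb. The value was 4.50 in the class of 3 to 5 kb and 6.66 in the longest. Genes with a region had a median length of 2808 bp, and all arm genes 2093 bp. The long genes include ATM at 27265 bp, GSL8 at 15294 bp, MOR1 at 14188 bp and THO2 at 13769 bp.

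Genes near the chromosome ends held regions more often, and those regions scored higher. Within 2 Mb of an end, 2.02% of genes held a region (112 of 5541), against 1.68% from 2 to 5 Mb (115 of 6832) and 0.934% farther in (129 of 13815). The median scores were 179 in replicate 1 and 351 in replicate 2 in the outer 2 Mb, 97.5 and 189 from 2 to 5 Mb, and 102 and 188 beyond. In the outer 2 Mb 77 of 111 regions scored at least 100 in both lists (69.4%), against 55 of 117 (47.0%) and 65 of 131 (49.6%) in the inner classes. The share of genes with a region was higher in the outer 2 Mb than in the rest of the arms on each of the 5 chromosomes, by the most on chromosome 4 (2.16 and 1.03%) and by the least on chromosome 5 (1.68 and 1.20%). The median gene length hardly changed along the arm, at 2103, 2172 and 2053 bp. A like share of the arm regions outside genes lay in the outer 2 Mb, 76 of 231 (32.9%), beside 111 of 359 (30.9%) inside genes. The 76 were spread unevenly, with 25 on chromosome 2 and 11, 18, 11 and 11 on chromosomes 1, 3, 4 and 5. How much of the arm bases outside genes lies there was not computed, so the 32.9% has no background. Of those 76, 42 (55.3%) scored at least 100 in both lists, against 47.7% of the others outside genes. This split was made after the data were seen, and no test of it was run.

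**Figure D3:**
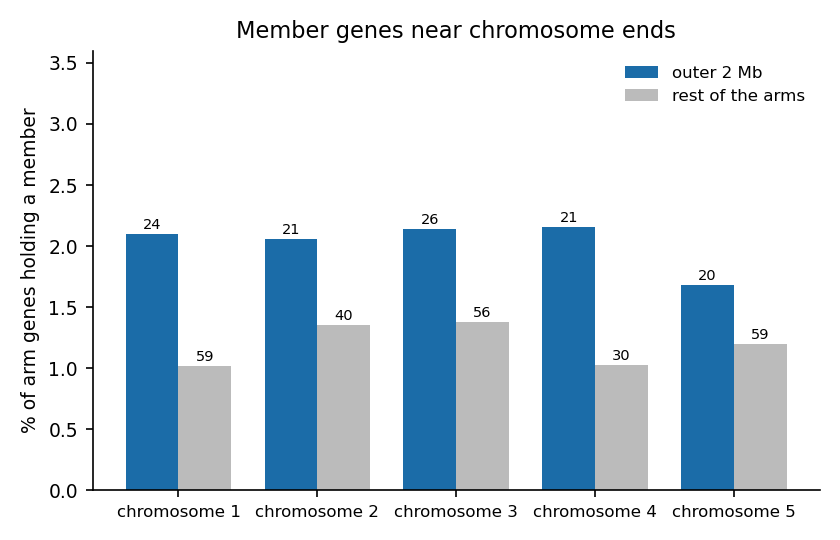
Percentage of arm protein-coding genes that held a region in the outer 2 Mb of each chromosome (blue) and in the rest of the arms (grey), with the number of such genes above each bar. The blue bars lie between 1.68 and 2.16% and the grey bars between 1.02 and 1.38%.

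The highest-scored of the 359 regions lay in AT1G72250, at 27192974 to 27194688 on chromosome 1, with scores of 1569 and 2422. It was wholly inside the gene, with its midpoint 1091 bp from the nearer end. Outside genes the highest arm score was the same value in both lists, 3100, and whether this is an upper limit of the score is not stated. Among the 359, the regions of BGAL14 and AT5G04500 tied for the next place by summed rank. The first lay near the centre of BGAL14, at 18037312 to 18038916 on chromosome 4 (1145 and 1934). BGAL14 is a gene of the beta-galactosidase family that trims cell wall polysaccharides. The AT5G04500 region lay at 1282807 to 1284296 on chromosome 5 (1475 and 1918). AT2G40310 at 16834095 to 16835554 on chromosome 2 (1082 and 1788) followed. TPP2, which encodes the large peptidase tripeptidyl peptidase II, had a region of 983 and 1809 that crossed one of its ends. The 30 best regions by summed rank all scored at least 455 in replicate 1 and 884 in replicate 2. They were 1261 to 2701 bp wide, 14 lay wholly inside the gene and 16 reached past an end. The gene table gives no symbol for most of these genes.

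For description, 102 of the 356 genes were put by hand into 11 groups by role, after it was known which genes had a region. Other named genes with a region were left out, so the groups are a chosen subset, and their sizes and counts measure no enrichment. Among all 359 regions 54.9% scored at least 100 in both lists, which is the share to set beside the counts below.

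Among genes for light responses and the clock, the highest scores were at LNK1 (AT5G64170), a clock-controlled coactivator expressed after dawn, with 661 and 1491 in a region of 1451 bp at 25673313 to 25674763 on chromosome 5. Its relative LNK4 (AT5G06980) had a lower region of 65.1 and 188. CAM7, a calmodulin that also takes part in light-regulated seedling growth, had 473 and 859. RRC1, a splicing-related factor of phytochrome B signalling, had a region of 216 and 534 well inside the gene and another of 63.7 and 90.0 near an end.

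In hormone and nutrient signalling, several of the regions stood near the top in both replicates. AT4G38480, annotated as ABD1 (ABA-hypersensitive DCAF 1), which belongs to the substrate receptors of a ubiquitin ligase, had 962 and 1699. SPX3, an SPX-domain protein of phosphate sensing, had 907 and 1462 in a region of 1477 bp that reached past an end of its gene of 1444 bp. HAB2, a protein phosphatase that holds abscisic acid signalling off, had 599 and 1140.1 in a region crossing a gene end. The lower members were RAPTOR2, a partner of the TOR kinase (181 and 301), CIPK9, a kinase of potassium nutrition (221 and 232), AT4G38060, annotated as Clavata complex interactor 2 (97.5 and 217), and LOG8, a cytokinin-activating enzyme (46.4 and 389.6).

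Transcription factors formed the largest group, with 20 genes and scores from 23.5 to 497 in replicate 1 and from 24.7 to 912 in replicate 2. TGA7, a bZIP factor of the family that acts in defence, was highest with 497 and 912. HAM3, a GRAS factor that keeps the shoot meristem undifferentiated, had 483 and 816, with the midpoint 180 bp inside the gene. PFS2, also known as WOX6, a homeobox factor of ovule patterning, had 363 and 735. BEH2, a relative of the brassinosteroid factor BZR1, had 311 and 739.

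Several of these factors act in cell wall thickening, root growth or nutrient balance. WRKY12, which holds back secondary wall formation in pith, had 387 and 562, and MYB63, an activator of lignin genes, had 331 and 642. ILR3, a bHLH factor of iron balance, had 119 and 672, a region that ranked much higher in replicate 2. FRS3, a member of the same transposase-derived family as FHY3, had 187 and 309. Root hair factor RHD6 had 116 and 192, and LBD16, which acts in lateral root initiation, 72.2 and 89.1. The lowest scores were those of PHB, an HD-ZIP III factor of the upper leaf side (27.5 and 69.4), WRKY54 (27.5 and 53.8) and the copper factor SPL7 (23.5 and 24.7), the region with the poorest summed rank of all.

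**Figure D4:**
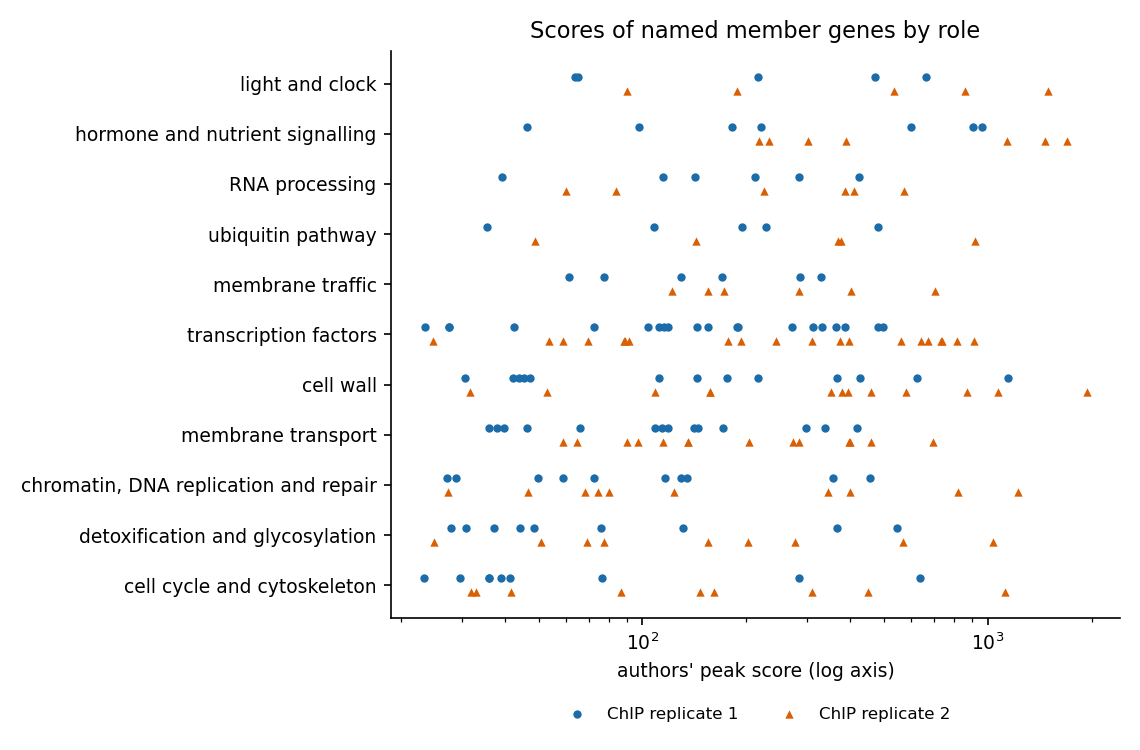
Authors' peak score (log axis) of the named genes by role group, with 1 circle per region for ChIP replicate 1 and 1 triangle for ChIP replicate 2; a gene with 2 regions has 2 symbols of each kind. Every group spans a wide range, for example from 30.6 to 1145 in replicate 1 for cell wall genes.

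Genes of the cell wall included both high-scored and low-scored regions. Besides BGAL14, CESA1, a catalytic subunit of the cellulose synthase of growing walls, had 623 and 1073, and BGAL10, another beta-galactosidase, had 427 and 874. FLA10, a fasciclin-like arabinogalactan protein, had 365 and 579. AT1G77460, annotated as CSI3 (cellulose synthase interactive 3), had 176 and 458, with its midpoint 56 bp inside the gene. PGSIP3, a glycosyltransferase of xylan side chains, had 216 and 394, and AT4G02300, annotated as pectin methylesterase 39, had 112 and 351. At the low end were GSL8, a callose synthase of cell division (42.1 and 109), COBL11, a COBRA-like protein (43.8 and 52.9), and TSD2, a methyltransferase needed for pectin (47.1 and 31.7). In this group, 8 of 13 genes had a region of at least 100 in both lists, near the share over all regions.

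Membrane transport was the next largest group, with 14 genes, 8 of them at 100 or more in both lists, again near the share over all regions. Carriers and channels for cations led it. NHX8, a sodium/proton-exchanger family member, had 419.5 and 695. CHX25, a cation/proton exchanger, had 297 and 459, and KCO2, a tandem-pore potassium channel, 337 and 400.4. Other potassium genes were lower: KUP11, an uptake carrier, had 141 and 273, and GORK, the outward channel of guard cells, 118 and 135. HA1, a plasma membrane proton pump that energises transport, had 145 and 285. ERD6 and STP2, both sugar carriers, had 38.0 and 115 and 39.8 and 97.1.

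Among genes of chromatin, replication and repair, FDM3 was highest with 458 and 1226 in a region of 2701 bp; its family acts in RNA-directed DNA methylation. DME, a glycosylase that removes methylated cytosine in the central cell of the female gametophyte, followed with 355 and 818. Both DNA ligase genes were of middle rank, LIG1 with 116 and 400.4 and LIG6 with 134 and 344. EFS, a histone H3 lysine methyltransferase that delays flowering, had 58.9 and 68.3. ATM, the kinase that signals DNA breaks, had 28.9 and 74.3, and RGD3 27.2 and 27.4.

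The cell cycle and cytoskeleton group was picked by hand and may leave out other such genes with a region, so its count does not describe them all. Genes left out of every group include AT1G72250, with the highest-scored region, and AT4G38950 (850 and 1311). A low share among the chosen genes therefore does not show that genes of this role score low. Of the 9 chosen genes, 2 reached 100 or more in both lists, beside 54.9% of all regions. These were ZWI, a calmodulin-binding kinesin that shapes trichomes, with 636 and 1122, and AT2G32710, annotated as KIP-RELATED PROTEIN 4, an inhibitor of cyclin-dependent kinases, with 285 and 449.9. APC7, a subunit of the anaphase-promoting complex, had 76.4 and 161. KINESIN-12B, a motor of the dividing cell's phragmoplast, had 39.1 and 86.8, and PS1, which sets spindle orientation in male meiosis, 41.4 and 32.9.

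In RNA processing, CAF1, a splicing factor of chloroplast introns, had 425 and 572. PRP40B, a component of the early spliceosome, had 284 and 409, and VCS, a scaffold of mRNA decapping, 212 and 386. STIPL1, a spliceosome disassembly factor that affects the clock, had 142 and 226.

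The other groups were smaller. In membrane traffic PRA1.C, a prenylated Rab acceptor, had 329.7 and 705, and the Rab GTPase gene ARA-2 had 286 and 402. In the ubiquitin pathway SK20, a SKP1-like subunit, had 479.7 and 917, and PUB19, a U-box ligase, 35.4 and 48.8. Among enzymes of detoxification, GSTU19, a tau-class glutathione transferase, had 546 and 1035, and CYP81D2, a cytochrome P450, 367 and 569.

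Lists of pathway genes linked to FHY3 and to flowers were counted beside the 1.36% of all arm genes. Of 196 listed genes in the arms, 7 held a region (3.57%): HAM3 and PHB of 28 meristem genes, LNK1 of 20 clock genes, HAB2 of 17 abscisic acid genes, FRS3 of 13 FHY3/FAR1 family genes, ATM of 16 recombination and repair genes and SPX3 of 8 phosphate genes. No member was found among 22 floral organ identity genes, 33 light signalling genes, 16 tetrapyrrole genes, 12 starch genes or 11 housekeeping genes. At a background of 1.36%, lists this short would often hold none, so these absences say little. RRC1, CAM7 and LNK4, which hold regions, are not on the light signalling or clock lists. At 100 or more in each list, 5 listed genes were left, set beside 0.752% of all arm genes. The lists were written with earlier results of these data known, so their share is no independent evidence. These counts rest on the midpoint of the union. AHP2, a recombination gene, held the midpoint of a replicate 1 peak that scored 1304 and overlapped a peak of replicate 2, and CHLH held that of one scoring 75.9, but the midpoints of the unions lay outside these genes. Peaks found in a single list lay inside PI (28.8 in replicate 1), CCA1 (28.6 in replicate 2), CHLH (43.5 in replicate 2) and SPX4 (33.8 and 59.0 in replicate 2).

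Classes drawn from words in the gene names gave shares on both sides of that background. Such words are held mainly by genes with a symbol, of which 1.57% held a region. Transporters and channels had 11 of 543 (2.03%), transcription factors 12 of 729 (1.65%), cytochrome P450 genes 5 of 229 (2.18%) and kinases 5 of 556 (0.899%), where 1 of the 5 is the inhibitor AT2G32710. Glycosyltransferases and glycosyl hydrolases had 10 of 211 (4.74%), and their genes are longer than most, with a median of 3096 bp. Kinesins had 2 of 21 genes (9.52%), with a median length of 5304 bp. Genes named for a defective embryo, with a median length of 3124 bp, had 8 of 259 (3.09%). Among them were eIF6A, a ribosome biogenesis factor (413 and 569), EMB1080 (328 and 663) and EMB3012 (239 and 329). This class was added after the data were seen. Transporters and channels, at a median of 3003 bp, and kinases, at 2924.5 bp, were also longer than the 2093 bp of all arm genes. Ubiquitin ligases had 2 of 65 and leucine-rich repeat genes 1 of 14, PIRL2 (65.5 and 163). No gene with phosphatase (139 genes), F-box (29), helicase (23) or pentatricopeptide (12) in its name held a region. Genes named otherwise are missed, such as the phosphatase HAB2, which is named there only by its homology. The counts of these and the other word classes, kinesins included, therefore do not describe whole families, and members of them may hold a region.

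In 7 genes, 2 separate regions were found. In TPP2 the high-scored region at one end was accompanied by one of 153 and 339 inside the gene. AT5G10370 held regions of 321 and 496 and of 112 and 283. AT5G59270 held one of 90.1 and 193 at one end and one of 40.5 and 51.8 near the other. AT5G60930 likewise had a region near each end, of 37.0 and 68.7 and of 49.8 and 117. DGK6, a diacylglycerol kinase, held 2 low-scored regions of 29.9 and 43.3 and of 38.0 and 29.2. The other two genes were RRC1 and THO2. Conversely, 4 midpoints lay in 2 overlapping genes at once: AT3G04440 and AT3G04443, AT3G55470 and PAT2, AT5G11970 and AT5G11975, and AT5G25050 and RRC1. Another 10 midpoints also lay in a gene of a non-coding kind, 8 of them long non-coding RNAs.

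A few regions ranked very differently in the replicates. Over 30 percentile points separated the replicates in 11 regions, 7 of them higher in replicate 2. MOR1, which encodes a microtubule polymerase, had the lowest score of all in replicate 1 (23.4) and 310.4 in replicate 2. AT3G09440 had 54.4 and 608, LOG8 46.4 and 389.6, and CCR1, an enzyme of lignin synthesis, 45.4 and 378. In the other direction SKB1, an arginine methyltransferase that acts on histones, had 129.7 and 46.5, AT2G40620, a bZIP factor gene, 144 and 91.2, and PROT1, a proline transporter, 109 and 64.7. Of the regions higher in replicate 2, those at MOR1 (1967 bp), CCR1 (2396 bp), AT3G09440 (2712 bp) and ILR3 (3116 bp) were wide. Those at LOG8 (1128 bp), AT1G15630 (1010 bp) and PTAC16 (820 bp) were below the median width of 1150 bp. The widest of the 11, a THO2 region of 4923 bp, was higher in replicate 1 (115 and 60.05). Whether the tissue, the depth or the calling of peaks differed at these genes was not tested.

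The 4 widest regions came from a single stretch of chromosome 1. Of the 16 regions wider than 2000 bp, 4 lay between 8706261 and 8776166, a stretch of 69906 bp: MAP70-2, a microtubule-associated protein gene, with 10504 bp, AT1G24580 with 7633 bp, and THO2, a subunit of the complex that couples transcription to mRNA export, with 4923 and 3860 bp. Replicate 1 had 13 peaks there that covered 46.2% of the stretch, and replicate 2 had 11 that covered 45.2%. Their scores were low for their width, from 25.0 to 134 in replicate 1 and from 28.0 to 147 in replicate 2. Of 993 bins of 100 kb in the arms, the one holding this stretch was the most covered in both lists, with 32300 and 31584 bp, where the median of bins with a peak was 1122 and 1282 bp. The second, the first 100 kb of chromosome 2, was covered almost as much, with 29732 and 26675 bp. The stretch holds 19 protein-coding genes. One of them, DRNL, an AP2-type factor of lateral organ initiation in the shoot and flower, lay under a shared region that is not counted here, because the midpoint fell just outside the gene; its peaks scored 73.5 and 93.6. Without the stretch 355 regions and 353 genes were left. The input sample's coverage was not analysed here, so its part in these peaks was not tested.

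**Figure D5:**
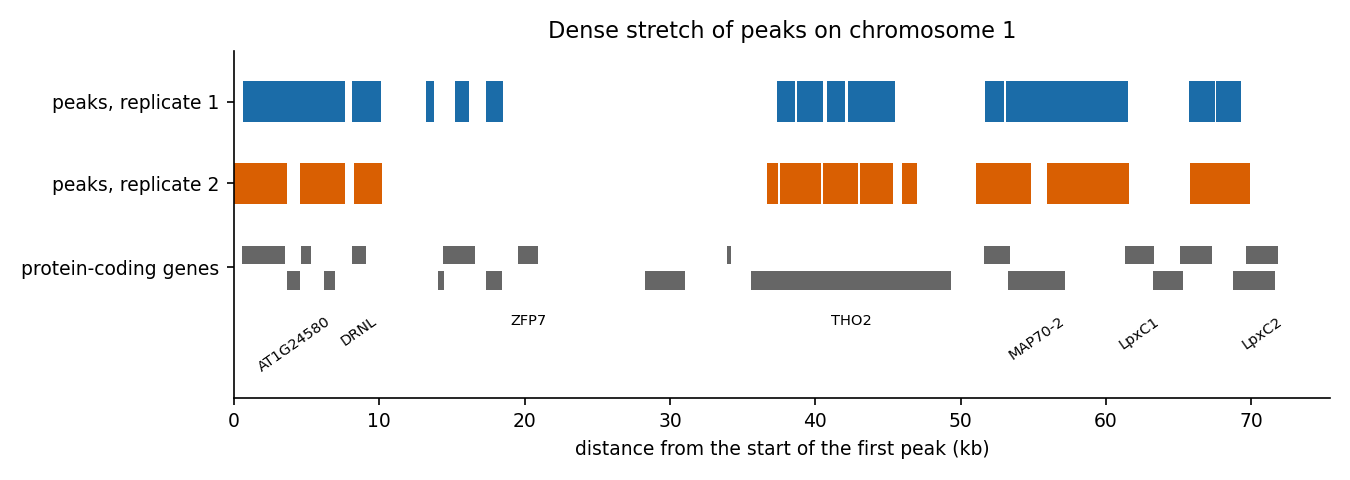
Map of the dense stretch on chromosome 1, in kb from the start of its first peak, with the peaks of ChIP replicate 1 (blue), the peaks of ChIP replicate 2 (orange) and the protein-coding genes (grey, on 2 rows). Peaks cover 46.2 and 45.2% of the stretch and lie over DRNL, THO2 and MAP70-2 in both replicates; AT1G24580 lies under a peak of replicate 1 and in a gap between 2 peaks of replicate 2.

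The narrowest regions scored low in both lists. They lay in CYCJ18, a cyclin-like gene (590 bp, 36.0 and 31.8), AT2G44500 (615 bp), AT3G61870 (638 bp), AT5G44230 (647 bp) and AT5G66005 (661 bp). Their scores ranged from 24.6 to 46.9 in replicate 1 and from 23.1 to 32.5 in replicate 2. The last of them lay in the third most covered bin of the arms, near the end of chromosome 5, whose 4 regions also include those of ZWI, AT5G65750 and MYB68.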

How the data were processed

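ChIP DNA of 2 replicates was sequenced. CASAVA 1.8, Bowtie2 2.2.3 and MACS 1.4.2 are named by the submitters' processing notes; the sources used here give no settings, control or build. The deposited files hold, per replicate, peak positions and the authors' score, which has no stated scale and was used to rank, filter and describe peaks; Pearson's r was taken on log10 scores. Depth is unknown, and more reads would give more peaks and higher scores. Samples were grouped by title. Starts were converted to count from 1, and peaks were joined and placed in the 27444 protein-coding nuclear genes of the TAIR10.1 table, which gives no strand or sequence, so the planned binding-site search was not run. Fisher's exact tests (two-sided) were adjusted by the Benjamini-Hochberg method over 3 tests; the joins were tested on simulated data. Alternatives were other overlaps, scores, limits and single replicates. Members, gene lists and classes were chosen with earlier results of these data known. Named genes are those of the 30 best summed ranks, the lists, genes with 2 regions, the 5 widest and 5 narrowest regions and 3 per name class; role groups, rank differences, the edge cases, long genes, DRNL and genes sharing a bin or midpoint were chosen after their values were seen. Analyses used Python 3.11.15, numpy 2.4.6, pandas 2.3.3, scipy 1.17.1 and matplotlib 3.10.9.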

Additional observations from a re-analysis of the deposited data

How the results depend on the processing

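The numbers of regions and genes stayed within 1.5 times of 359 and 356 under a reciprocal overlap of 50%, midpoints within 200 bp, scores at or above each list's median, limits widened by 1 Mb and, chosen after seeing the data, without the dense stretch on chromosome 1. They fell to 197 regions and 197 genes at a score of 100 or more in each list, and to 193 regions and 191 genes when the whole region had to lie inside the gene. With each replicate left out in turn, the peaks of the other alone gave 474 to 514 regions, 464 to 502 genes and 10 listed genes in either case. For replicate 2, peaks inside genes were found again less often than those outside, by -3.35 percentage points at a score of at least 50 in their own list (adjusted p = 0.291 by Fisher's exact test) and by -3.39 points with widened limits (adjusted p = 0.322), where the main difference was 0.695 points; the cause was not tested. For replicate 1 the difference shrank from 7.14 to 0.978 points at a score of at least 50. No Fisher's exact test passed the adjusted threshold under any alternative. No paired analysis was possible because only 1 ChIP group exists. The search for the FHY3 binding site and its alternatives were not run.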
